A study of Mus musculus with 4 samples.

Results

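Of the 12925 reproducible regions bound by tyrosine-phosphorylated STAT3 (pSTAT3) in cultured oligodendrocyte progenitor cells, 3792 lay inside a gene and far from its ends, 29.3% of the total (95% Wilson interval 28.6 to 30.1%). A region was counted when its midpoint fell between the start and the end of at least 1 listed transcript, over 5 kb from every listed start and over 1 kb from every listed 3' end. Position alone chose these regions among the reproducible ones, while the distances asked for favour long host genes. Binding entered earlier, since every region of each class had passed the authors' limit of reproducibility between the replicate libraries. They made up the most populous of the 6 position classes compared here, followed by 3092 regions within 1 kb of a start, called core promoters below, and 2298 intergenic regions over 25 kb from every listed start. This rank depends on how the classes were cut. Another 1647 regions lay 1 to 5 kb from a start, and another 1602 intergenic regions lay 5 to 25 kb from one.

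The cells were primary progenitors from the cortex of C57BL/6 mice, kept dividing in medium with bFGF at 20 ng/ml and PDGF-AA at 10 ng/ml, and given the cytokine CNTF at 100 ng/ml for 15 min. Chromatin was immunoprecipitated with an antibody to STAT3 phosphorylated on tyrosine Y705. The group used here is this treated ChIP group, with 2 libraries, while the 2 input libraries, made from cells treated alike, were not analysed here. Every library came from CNTF-treated cells, so the data place binding after treatment and hold no comparison with untreated cells. The protocol pools lysed cells before immunoprecipitation and no label names separate cultures, so the spread between replicates may be technical.

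CNTF binds a receptor complex that contains the CNTF receptor and gp130, and the attached JAK kinases phosphorylate STAT3. Phosphorylated STAT3 pairs up, enters the nucleus and binds DNA at palindromic elements of the form TTCNNNGAA. Such elements occur at promoters and also within genes, where introns can hold enhancers that act on the host gene or on a neighbour. A bound site inside a gene therefore does not say which gene, if any, it regulates. In the oligodendrocyte lineage, cytokines of this family are known to act on survival and differentiation, and STAT3 is also well known for its part in astrocyte formation.

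A small group of these regions showed why the choice of annotation matters. In 21 of them the summit of at least 1 replicate fell inside a promoter window of the RefSeq table, 250 bases before to 50 after a start that the authors' table does not list within 5 kb. Letters of the genome around the other regions were not analysed here, since only promoter windows were at hand. The 9-letter element TTCNNNGAA, which reads the same on both strands, was present in 7 of these 21 windows (33.3%), against 8.30% of all 32851 RefSeq promoter windows. The stricter form TTCCNGGAA, every match of which also matches TTCNNNGAA, was present in 2 of 21, against 1.15% of all windows. These matches describe letters and are not evidence of a binding site.

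The windows printed here are that of Sbno2, which leads the 21 by the lower fold enrichment of the replicates, and the 6 whose match lay between 6 and 57 bp from the summits of both replicates. All are from RefSeq on GRCm38.p6, 5′ to 3′ on the strand of the gene whose start they hold, with matches to TTCNNNGAA in capitals. The positions are chr10:80075390-80075689 on the minus strand for Sbno2, chr16:23981234-23981533 on the minus strand for Bcl6, chr1:52113841-52114140 on the minus strand for Gm31812, which lies inside Gm28177, and chr3:145890630-145890929 on the minus strand for Gm35187, inside Ddah1. The others are chr8:117423210-117423509 on the minus strand for Gm39260, inside Cmip, chr5:116278434-116278733 on the plus strand for Gm52827, inside Ccdc60, and chr4:136803710-136804009 on the plus strand for Gm52708, inside Ephb2.
Sbno2: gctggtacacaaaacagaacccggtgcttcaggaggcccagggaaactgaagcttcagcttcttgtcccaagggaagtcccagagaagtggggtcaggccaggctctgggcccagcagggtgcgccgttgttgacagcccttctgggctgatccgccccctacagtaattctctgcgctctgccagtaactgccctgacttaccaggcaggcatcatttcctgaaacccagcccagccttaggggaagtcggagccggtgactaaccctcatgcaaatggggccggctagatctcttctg
Bcl6: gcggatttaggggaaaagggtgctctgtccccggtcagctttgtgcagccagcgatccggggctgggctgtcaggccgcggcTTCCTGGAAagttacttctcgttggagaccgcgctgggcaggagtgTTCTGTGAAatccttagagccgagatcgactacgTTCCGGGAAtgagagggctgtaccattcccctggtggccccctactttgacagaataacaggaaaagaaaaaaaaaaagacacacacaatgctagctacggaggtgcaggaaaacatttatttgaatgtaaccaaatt
Gm31812: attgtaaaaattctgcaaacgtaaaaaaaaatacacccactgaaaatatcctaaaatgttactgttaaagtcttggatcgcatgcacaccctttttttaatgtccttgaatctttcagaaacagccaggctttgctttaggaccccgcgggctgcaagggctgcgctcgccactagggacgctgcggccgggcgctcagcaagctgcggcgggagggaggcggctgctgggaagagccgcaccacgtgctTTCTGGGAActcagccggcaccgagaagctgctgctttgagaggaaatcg
Gm35187: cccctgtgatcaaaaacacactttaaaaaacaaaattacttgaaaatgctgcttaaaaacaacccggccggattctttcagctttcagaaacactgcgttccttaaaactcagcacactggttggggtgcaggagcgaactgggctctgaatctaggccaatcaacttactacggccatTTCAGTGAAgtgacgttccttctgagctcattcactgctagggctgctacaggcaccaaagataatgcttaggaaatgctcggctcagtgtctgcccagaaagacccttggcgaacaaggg
Gm39260: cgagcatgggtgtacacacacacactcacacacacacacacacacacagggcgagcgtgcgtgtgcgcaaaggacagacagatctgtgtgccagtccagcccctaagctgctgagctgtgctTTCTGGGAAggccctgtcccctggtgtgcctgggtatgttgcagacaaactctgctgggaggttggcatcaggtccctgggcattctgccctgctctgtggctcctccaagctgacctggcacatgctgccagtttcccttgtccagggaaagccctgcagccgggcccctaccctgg
Gm52827: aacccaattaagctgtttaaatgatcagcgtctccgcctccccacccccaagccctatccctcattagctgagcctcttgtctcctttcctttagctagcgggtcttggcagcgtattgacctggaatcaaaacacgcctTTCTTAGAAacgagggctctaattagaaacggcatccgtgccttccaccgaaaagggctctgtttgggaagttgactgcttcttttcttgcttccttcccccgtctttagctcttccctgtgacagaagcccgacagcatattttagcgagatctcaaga
Gm52708: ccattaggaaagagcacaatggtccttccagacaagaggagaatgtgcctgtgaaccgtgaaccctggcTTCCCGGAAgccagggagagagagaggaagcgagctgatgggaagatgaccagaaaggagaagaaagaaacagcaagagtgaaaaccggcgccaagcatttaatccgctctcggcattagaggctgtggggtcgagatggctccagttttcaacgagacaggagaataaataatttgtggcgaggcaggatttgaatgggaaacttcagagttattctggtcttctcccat

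The Bcl6 window held 3 matches, TTCCTGGAA, TTCTGTGAA and TTCCGGGAA, and the first and last of these also match the stricter form. Bcl6 encodes a transcriptional repressor. Its region had 23.4-fold enrichment in replicate 1 and 15.5-fold in replicate 2 and lay 5.48 kb from the nearest listed start. The Gm31812 window held TTCTGGGAA, 16 bp from the summit in replicate 1 and 12 bp from it in replicate 2, in a region of 36.8-fold and 49.2-fold enrichment. The Gm52708 window, inside the ephrin receptor gene Ephb2, held the strict form TTCCCGGAA in a region of 10.3-fold and 6.66-fold enrichment. The Sbno2 window held neither form, although its region, at 43.9-fold in replicate 1 and 39.7-fold in replicate 2, had the highest lower value of the replicates among the 21. Of the 3652 intragenic regions on chromosomes for which RefSeq windows were at hand, 62 (1.70%) lay within 1 kb and 151 (4.13%) within 5 kb of a RefSeq start. The other 3501 were far from the starts of both annotations. Windows were missing for chromosome 18, whose 140 intragenic regions were not compared with RefSeq starts.

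Strength was taken as fold enrichment, the authors' value for the peak summit: fragments stacked there over the local background, with 1 added to each. A library's depth is known only through that background, whose lowest value was 4.72 fragments in replicate 1 and 2.91 in replicate 2. The deposited lists held 42189 and 26649 peaks for these replicates. Every one of the 3792 intragenic regions overlapped a peak in both, which follows from their selection as reproducible in these libraries. Where 1 value is used per region it is the lower fold of the replicates. Intervals on shares cover counting error over regions or genes only.

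The intragenic regions ran from barely enriched sites to some of the tallest in the data. In replicate 1 the fold enrichment ranged from 2.51 to 51.8 with a median of 10.3 and quartiles of 7.70 and 15.7. In replicate 2 it ranged from 2.33 to 57.1 with a median of 7.53 and quartiles of 5.63 and 11.4. The stacked fragments at the summit numbered 15 to 307 in replicate 1, with a median of 68, and 10 to 242 in replicate 2, with a median of 33. Replicate 1 gave the higher fold in 3601 regions and replicate 2 in 191 (5.04%). The log2 ratio of replicate 1 to replicate 2 had a median of 0.41 and an SD of 0.27 over the 3792 regions. Across the 3792 regions, Pearson's r between replicates was 0.933 on the log2 scale and the Spearman rank correlation was 0.90. A mean −log10 p under 8 in the authors' table was found in 145 of all regions (1.12%). The intragenic ones among them, 40 weak regions (1.05% of their class), lay at the low end. They included sites in the transcription factor gene Gli2, at 2.58-fold and 2.50-fold, and the neuregulin gene Nrg1, at 2.51-fold and 2.43-fold, both picked after their values were seen. The correlation describes regions that were selected for reproducibility in the same pair of libraries.

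**Figure D1:**
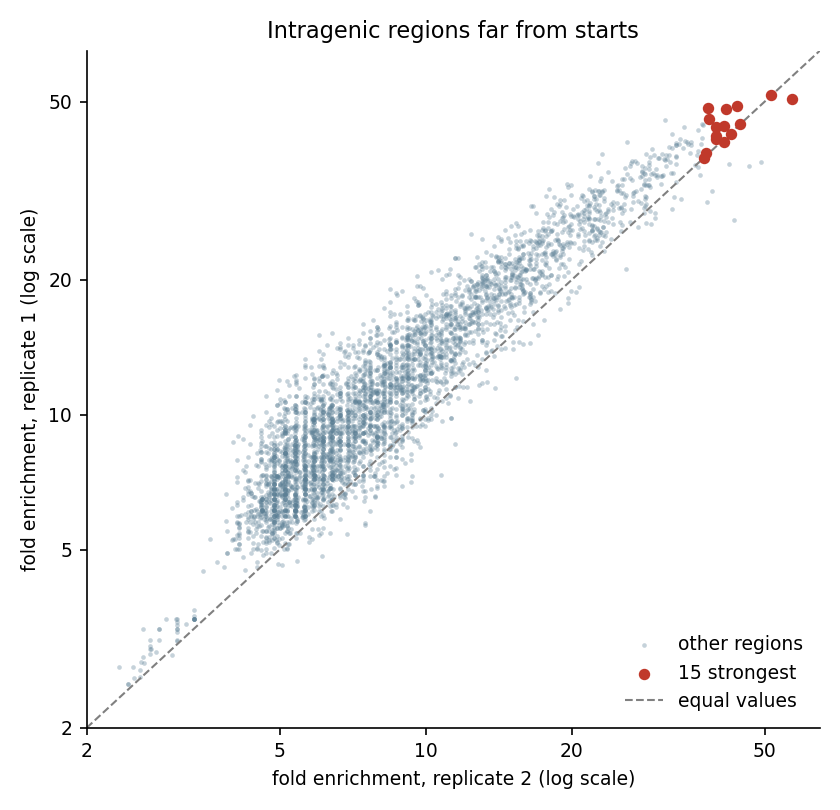
Fold enrichment of each of the 3792 intragenic regions far from starts in replicate 2 (horizontal, log scale) and replicate 1 (vertical, log scale), with the 15 strongest in red and a dashed line at equal values. Most points lie above the line, 3601 of 3792, and the 15 strongest reach 37.4-fold or more in both replicates.

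Among regions that had passed the authors' limit of reproducibility, intragenic regions were bound about as strongly as core promoters. That limit applied to every class, and sites that failed it were not compared. Intragenic regions had a median lower fold of 7.48, against 7.54 for core promoters, a ratio of 0.992. Within replicates the medians were 10.3 against 10.5 in replicate 1, a ratio of 0.982, and 7.53 against 7.65 in replicate 2, a ratio of 0.985. These gaps are far smaller than the quartile range of either class. A lower fold of at least 20 was reached by 287 intragenic regions, or 7.57% (interval 6.77 to 8.45%), against 270 core promoters, or 8.73% (7.79 to 9.78%), and 7.76% of all regions. In replicate 1 alone the shares were 15.5% of intragenic regions and 16.1% of core promoters, and in replicate 2 alone 7.62% and 8.80%. The IDR, the authors' measure of how irreproducible a region's rank is between replicates, was at most 0.01 in 3031 intragenic regions, or 79.9%, against 79.3% of all regions. The intragenic shares were thus close to those of the whole table on both measures.

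The intragenic regions were narrower than core promoters. The median intragenic region was 486.5 bp wide, against 571 bp for core promoters, a ratio of 0.852. The peaks under them had median widths of 486 against 568 bp in replicate 1 and 375 against 392.5 bp in replicate 2, so the gap was smaller in replicate 2. Regions 1 to 5 kb from a start, with a median of 481 bp, and intergenic regions over 25 kb from every start, with 488 bp, were close to the intragenic value. The other classes together had a median of 510 bp. No test was made of this difference, since regions of the same libraries are not replicates.

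**Figure D2:**
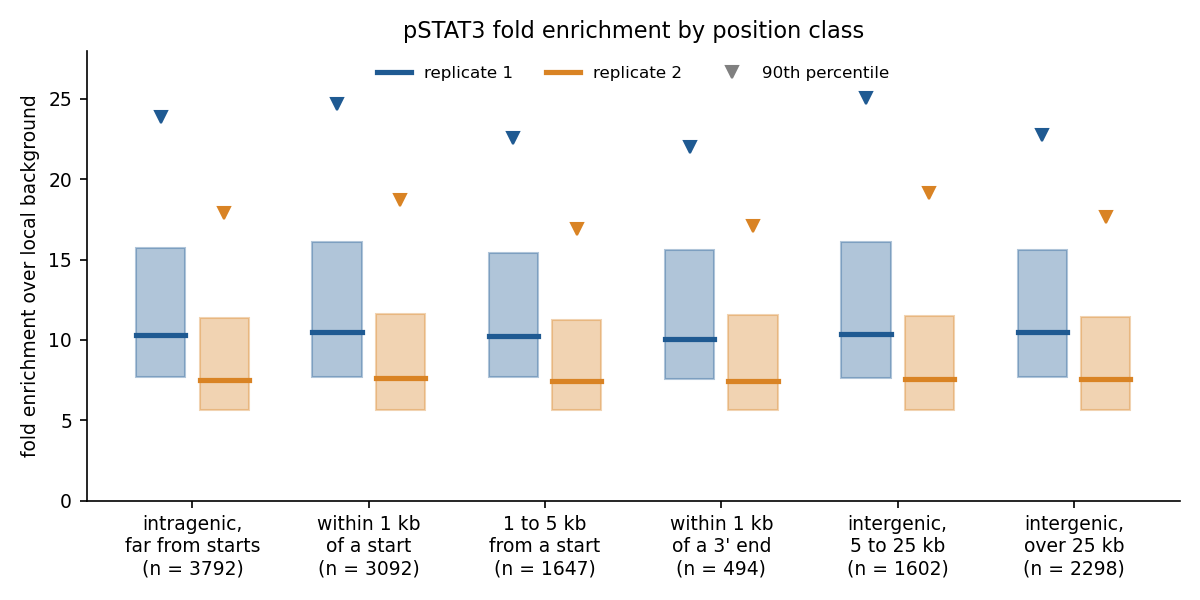
Fold enrichment over local background (vertical) for the 6 position classes, the intragenic regions first, with a box from the lower to the upper quartile, a line at the median and a triangle at the 90th percentile for each replicate. The medians of all classes are close, for example 10.3 for intragenic regions and 10.5 for core promoters in replicate 1, and the replicates differ more than the classes.

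Within genes, the nearest listed start lay at a median distance of 22.3 kb, with quartiles of 11.2 and 48.0 kb. The 797 regions at 5 to 10 kb had median folds of 9.98 in replicate 1 and 7.50 in replicate 2. The 377 regions over 100 kb away had 10.1 and 7.68. The share with a lower fold of at least 20 was 7.53% at 5 to 10 kb, 8.85% at 10 to 25 kb, 6.84% at 25 to 50 kb, 6.83% at 50 to 100 kb and 6.10% beyond. Strong binding was therefore found at every distance examined. The region farthest from any listed start lay in Dcc, the netrin receptor gene, at 863 kb, with 8.14-fold and 7.17-fold enrichment. Dcc is on chromosome 18, so this distance was not compared with RefSeq starts. Next came regions in Lrrtm4, which encodes a synaptic adhesion protein, at 669 kb with 7.87-fold and 4.86-fold, and in the receptor phosphatase gene Ptprd at 568 kb with 7.97-fold and 4.58-fold.

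**Figure D3:**
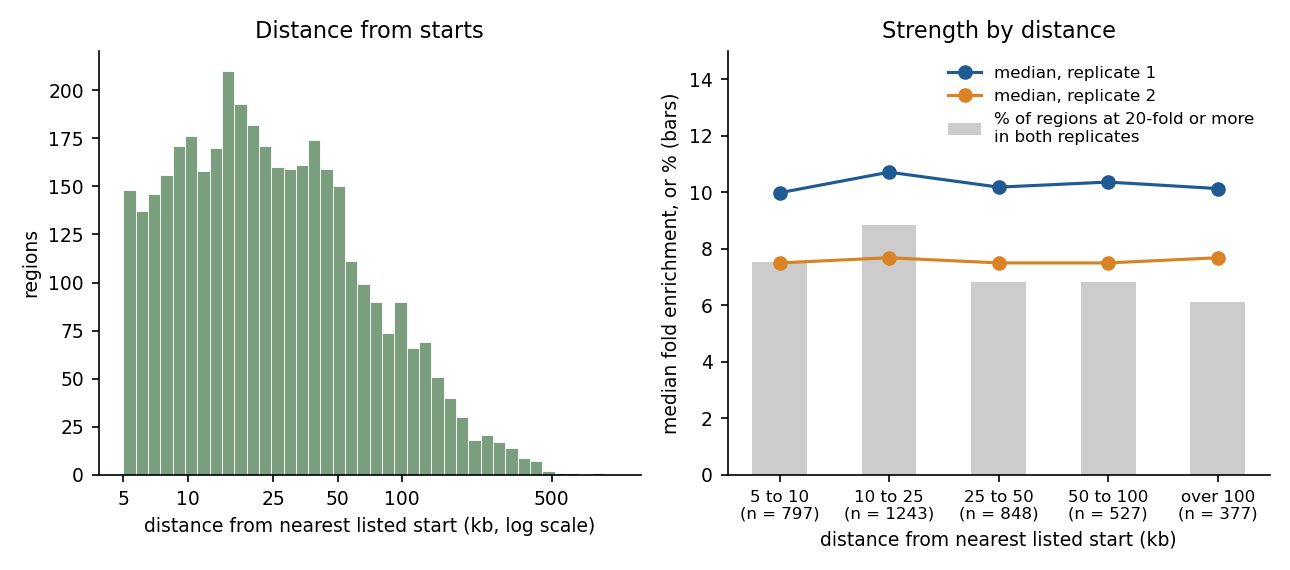
Left, number of intragenic regions by distance from the nearest listed start (kb, log scale); right, median fold enrichment per replicate (lines) and the percentage of regions at 20-fold or more in both replicates (bars) by distance. The medians stay between 9.98 and 10.7 in replicate 1 and between 7.50 and 7.68 in replicate 2.

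Single regions on either side of the limits of the rule had the following values. The counted region nearest to the 5 kb limit, in Klhl32, lay 5003 bp from a start and had 15.7-fold and 11.8-fold enrichment, and the first one left out, in Mboat1, lay at 5000 bp with 8.31-fold and 5.38-fold. At the 3' end limit, the nearest counted region lay in Ociad2, 1005 bp from a 3' end, with 8.57-fold and 6.40-fold. The first one left out there lay in 8030453O22Rik and Dennd2a, at 992 bp, with 22.8-fold and 19.9-fold. Along the longest host transcript, 1879 regions (49.6%, interval 48.0 to 51.1%) lay nearer the start and 1913 nearer the 3' end. In steps of 10% of transcript length, the first step held 213 regions, the fourth held 460 and the last held 299, and the limits of the rule remove sites from the first and last.

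The strongest intragenic region lay in Itpr1, which encodes a calcium release channel of the endoplasmic reticulum. It covered chr6:108426372-108427378 (GRCm38), 29.3 kb from the nearest listed start, and had 51.8-fold enrichment in replicate 1 and 51.7-fold in replicate 2, with 295 and 219 stacked fragments. A region in BC007180, at chr3:154691884-154692959, reached 50.8-fold and 57.1-fold. Next was a region in the adenylate kinase gene Ak5 at chr3:152483748-152484807, with 44.6-fold and 44.4-fold. In each of these 3 the replicates were closer to each other than in the typical region. Ranking by the lower fold of the replicates favours such regions.

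Several of the other strong sites lay in genes of receptors and adhesion molecules. This grouping was made with the values in view and was not compared with all host genes. Cubn, which encodes an endocytic receptor, had 48.8-fold and 43.8-fold enrichment, and Grm5, a metabotropic glutamate receptor gene, had 42.4-fold and 42.6-fold at a site 122 kb from the nearest listed start. The BMP receptor gene Bmpr1a, whose product passes on signals known to favour astrocytes over oligodendrocytes, had 44.2-fold and 41.3-fold at chr14:34453329-34454489. The large cadherin gene Dchs1, overlapped by Gm15645, had 48.1-fold and 41.7-fold, and the cadherin gene Cdh22 had 40.7-fold and 41.3-fold. Among these, Grm5 and Cdh22 were slightly higher in replicate 2.

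The rest of the 15 strongest were of mixed function. Kirrel3, an adhesion gene of the immunoglobulin family, had 41.2-fold and 39.7-fold enrichment, and the potassium channel gene Kcnd3 had 38.5-fold and 37.9-fold. Ebf1, which encodes a transcription factor, had 45.8-fold and 38.4-fold, and Ppp2r5e, which encodes a regulatory subunit of protein phosphatase, had 48.5-fold and 38.1-fold. The importin gene Kpna7 had 42.0-fold and 39.7-fold and E130307A14Rik had 37.4-fold and 37.5-fold. Together with Sbno2 these sites lay between 5.64 kb (Dchs1) and 122 kb (Grm5) from the nearest listed start.

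The regions were spread over many genes. They lay in 2175 listed genes, of which 1383 held 1 region, 398 held 2, 180 held 3 and 131 held 5 or more. Those 131 genes held 840 regions, 22.2% of the total, and 120 regions lay in more than 1 gene. By the RefSeq table, 3687 regions (97.2%) lay inside a gene of some kind and 3516 (92.7%) inside a protein-coding one. Another region lay within 10 kb of 1029 intragenic regions (27.1%), against 27.7% of all regions. Those with such a neighbour had a lower fold of at least 20 in 10.3% of cases, against 6.55% of the 2763 without one, while their medians were 10.7 and 7.68 in replicates 1 and 2 against 10.3 and 7.48.

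Npas3, a bHLH-PAS transcription factor gene of 824 kb, held 16 regions. The first, 43.9 kb from the first start, had 32.6-fold and 28.2-fold enrichment, and the weakest, at 785 kb, had 4.51-fold and 4.25-fold. Sox6, whose product restrains the differentiation of oligodendrocyte progenitors, held 11 in 567 kb, all at least 54.4% of the way along the gene, from 309 to 479 kb after the first start. The highest of them, at 474 kb, had 32.7-fold and 19.6-fold, and the one at 366 kb had 4.81-fold and 4.20-fold. The cAMP phosphodiesterase gene Pde4b also held 11, with 9 of them between 395 and 447 kb after the first start. Its 2 strongest had 34.5-fold and 28.3-fold at 396 kb and 32.5-fold and 25.4-fold at 447 kb.

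Other long genes carried as many. Snd1, which encodes an RNA-binding nuclease and transcriptional coactivator, held 11, with a median lower fold of 7.05 and a highest of 26.0. The reelin adaptor gene Dab1, the guanine exchange factor gene Trio and the tensin gene Tns3 also held 11 each, with highest lower folds of 22.8, 15.4 and 12.9. Msi2, which encodes an RNA-binding protein of progenitor cells, held 10, as did some other genes, and was taken from that tie by its summed lower fold. Its first region, 15.4 kb from the first start, had 27.3-fold enrichment in replicate 1 and 43.3-fold in replicate 2. Tns3 was the densest of these, with 4.72 regions per 100 kb of transcript, against 1.94 for Npas3.

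Some counts rested on very long listed transcripts. Gm20388 led with 21 regions over a listed transcript of 4435 kb, and has no entry in the RefSeq table. Gse1, on the same chromosome and strand, held 10 regions, all inside its RefSeq span. Its highest and lowest lower folds, 19.1 and 4.83, were the same as those of Gm20388. Fgfr2, the gene of a receptor for fibroblast growth factors, was listed with 16, yet its listed transcript spans 2961 kb where the RefSeq gene spans 104 kb. None of its 16 regions fell inside the RefSeq span. Among genes with 5 or more regions, the densest, picked out after the values were seen, was Elk3, which encodes a repressor of the ETS family. It held 8 regions in 63.7 kb, or 12.6 per 100 kb, among them 40.4-fold and 32.8-fold enrichment at chr10:93255001-93256038 and 37.5-fold and 30.3-fold at chr10:93263175-93264391. Its weakest had 6.12-fold and 5.38-fold.

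**Figure D4:**
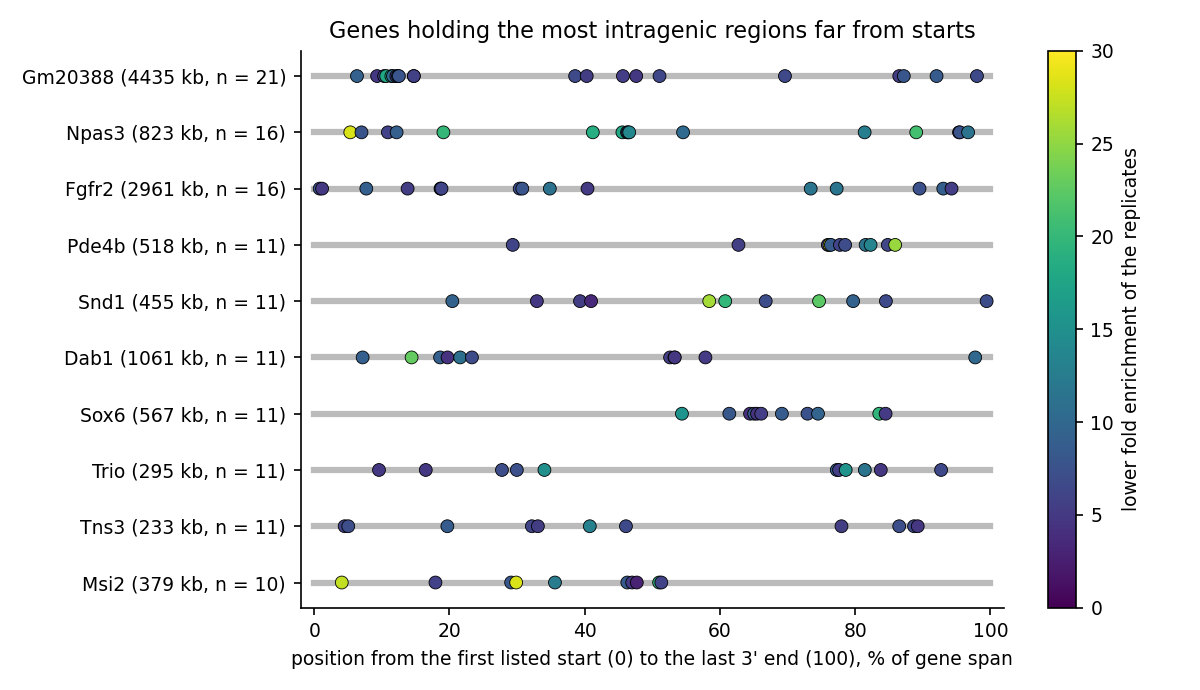
Positions of the intragenic regions along 10 genes that hold the most (Msi2 is 1 of several tied at 10 regions), from the first listed start (0) to the last 3' end (100) as a percentage of the gene's span, with colour for the lower fold enrichment of the replicates. All 11 regions of Sox6 lie at 54.4% of its span or later, and the strongest of Npas3 (28.2-fold) lies near its start.

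Whether a gene held such a region tracked its length. Of 21887 protein-coding genes of the RefSeq table, 1948 (8.90%) held at least 1, with a median length of 117 kb for those and 14.8 kb for the others. The share was 0.760% of genes under 20 kb, 6.54% at 20 to 50 kb, 16.3% at 50 to 100 kb, 35.5% at 100 to 200 kb, 57.9% at 200 to 500 kb and 71.8% above. Among the 2429 genes of 100 kb or more it was 45.9%. Both shares are used below as the background for gene lists. Regions per Mb of gene rose from 1.16 under 20 kb to 4.55 at 200 to 500 kb, and numbered 2.99 above 500 kb. Short genes have little or no room over 5 kb from a start, and this holds for Gfap (9.87 kb), Socs3 (4.26 kb) and Olig2 (3.13 kb), which held none. Stat3, at 52.8 kb, also held none. The myelin gene Mbp held 2, the stronger with 14.7-fold and 11.5-fold enrichment.

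Some hosting genes also had a bound core promoter. This was so for 402 of 1948, or 20.6% (interval 18.9 to 22.5%), against 2400 of the other 19939 protein-coding genes (interval 11.6 to 12.5%) and 12.8% of all. Among genes of 100 kb or more the shares were 23.3% (20.9 to 25.9%) and 16.0% (14.1 to 18.1%). The gap varied with gene length, with 14.1% of hosting and 14.2% of other genes at 20 to 50 kb, 20.3% and 15.8% at 50 to 100 kb, and 23.8% and 11.5% at 200 to 500 kb. Within the 402, the strongest intragenic region exceeded the strongest core promoter region in both replicates in 201 genes and fell below it in both in 168, and the replicates were split in 33. The counts differed with the number of intragenic regions to choose from. Where there was 1, it was the higher in 73 of 207 genes and the lower in 115, and where there were 2 or more, it was the higher in 128 of 195 and the lower in 53.

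Among genes of the pathway that CNTF acts through, 9 of 45 JAK-STAT and gp130 genes (20.0%) held an intragenic region, against the background of 8.90%. In the 9 that are 100 kb or longer the count was 4 (44.4%), against 45.9%. Over the whole list 8 genes held a region inside their RefSeq span. The kinase gene Jak2 had a region at chr19:29265116-29266337, 13.9 kb from the nearest listed start, with 36.2-fold and 35.9-fold enrichment. The CNTF receptor gene Cntfr had one at chr4:41677172-41677911, 13.5 kb away, with 42.4-fold and 32.2-fold. Ptprt, which encodes a phosphatase known to act on STAT3, held 3, the strongest with 31.6-fold and 27.2-fold. The 18 regions of this list had median folds of 12.9 and 8.35, against 10.3 and 7.52 for regions in all protein-coding genes. These values lay within the range of the lists compared here. Across lists with any such region, medians ran from 8.58 to 13.2 in replicate 1 and from 6.04 to 9.73 in replicate 2.

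Receptor tyrosine kinase and ERK feedback genes held regions in 16 of 42 cases (38.1%), and in 12 of 19 at 100 kb or more. These counts use listed transcripts. Over the whole list 15 genes held a region inside their RefSeq span. For this list and those that follow, the background was again 8.90% of all genes and 45.9% of long ones, not matched for length. The neurotrophin receptor gene Ntrk2 had 28.2-fold and 23.6-fold enrichment at its strongest site. Nf1, which encodes a Ras inhibitor, had 28.5-fold and 22.5-fold, and Ephb2 held 8 regions with 21.2-fold and 25.9-fold at the strongest. Notch, BMP and Wnt genes counted 15 of 49 (30.6%) and 9 of 19 long ones. In that list Daam2, a Wnt and actin regulator gene, reached 45.6-fold and 31.2-fold, and Notch1, whose product holds progenitors undifferentiated, reached 34.1-fold and 30.6-fold. PI3K, AKT and mTOR genes counted 7 of 28 (25.0%) and 4 of 10 long ones, with Akt2 (12.6-fold and 10.2-fold), Phlpp1 (14.1-fold and 10.1-fold) and Mtor (10.6-fold and 9.37-fold) at the top.

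Oligodendrocyte lineage transcription factor genes held a region in 19 of 58 cases (32.8%), and in 15 of 26 (57.7%) at 100 kb or more. The background was 8.90% of all protein-coding genes and 45.9% of those of 100 kb or more. None of the lists in this paragraph was matched to it for gene length. Besides Npas3, the ETS repressor gene Etv6 had 32.6-fold and 28.9-fold enrichment and the CREB family gene Creb5 had 32.0-fold and 27.9-fold. Progenitor markers counted 15 of 37 (40.5%) and 11 of 18 long ones. The matrix gene Tnr held 6, the strongest with 26.4-fold and 22.0-fold, and the proteoglycan gene Cspg4, which encodes NG2, held 2 within 34.8 kb, the stronger with 20.8-fold and 19.7-fold. Myelin and mature oligodendrocyte genes counted 13 of 45 (28.9%) and 9 of 11 long ones. Beside Pde4b, these included Nfasc, an adhesion gene of the node of Ranvier, with 26.6-fold and 25.4-fold, and the calcium channel gene Itpr2 with 25.9-fold and 22.0-fold.

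Binding inside genes was not limited to markers of the labelled cell type. Astrocyte markers counted 11 of 37 (29.7%), with Npas3, Nfia (30.0-fold and 27.4-fold) and the bicarbonate transporter gene Slc4a4 (23.1-fold and 22.0-fold) at the top, and both Npas3 and Nfia are also on the lineage factor list. Neuron markers counted 7 of 30 (23.3%), with the synaptic vesicle gene Syp at 22.9-fold and 15.9-fold. Endothelial, pericyte and fibroblast markers also counted 7 of 30, with Ebf1 and the adhesion gene Pecam1 (25.5-fold and 21.7-fold) at the top. Microglia markers counted 6 of 30 (20.0%), with the guanine exchange factor gene Dock2 at 22.8-fold and 22.1-fold. The 3 regions listed for Cx3cr1, up to 34.8-fold and 23.8-fold, lay in a listed transcript of 167 kb and outside its RefSeq span of 19.6 kb. With regions required to lie inside RefSeq spans, microglia markers counted 5 and astrocyte markers 10, while the other marker counts of this paragraph stayed at 7. Among markers of 100 kb or more, a region was held by 8 of 10 for astrocytes, 4 of 6 for neurons, 4 of 8 for endothelial cells, pericytes and fibroblasts and 4 of 5 for microglia, against 45.9% of all long genes. The background for whole lists was 8.90%, and neither background was matched for gene length. Binding was measured and expression was not, so these counts do not show which cell types were in the culture, and the part of other cell types was not tested.

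Lists of long genes gave the highest shares. Adhesion genes counted 36 of 51 (70.6%), with Cdh22, Nrcam (34.1-fold and 30.8-fold enrichment) and Chl1 (34.6-fold and 29.4-fold) at the top, and a median gene length of 417 kb. Axon guidance genes counted 25 of 44 (56.8%), led by the semaphorin receptor gene Plxna4 (33.6-fold and 28.9-fold) and Sema5b (34.8-fold and 27.9-fold). Ion channel and glutamate receptor genes counted 28 of 50 (56.0%), with Itpr1, Grm5 and Kcnd3 at the top, and their 85 regions had median folds of 13.2 and 9.61. Cyclic nucleotide and calcium signalling genes counted 26 of 47 (55.3%), led by the phosphodiesterase gene Pde3a (37.3-fold and 31.5-fold) and the protein kinase C gene Prkce (34.3-fold and 30.8-fold).

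Among long genes alone, the background was higher too. Of genes at 100 kb or more, 35 of 45 adhesion genes (77.8%), 23 of 34 axon guidance genes (67.6%), 26 of 43 channel genes (60.5%) and 25 of 40 cyclic nucleotide genes (62.5%) held a region, against 45.9%. Many of these genes are far longer than 100 kb, and the background was 57.9% of all genes at 200 to 500 kb and 71.8% of longer ones, so the shares were not matched for length. Chromatin and nuclear receptor regulators counted 24 of 56 (42.9%), and 19 of 31 long ones, with Jarid2, a partner of the Polycomb complex, at 37.6-fold and 32.8-fold. Cytosolic ribosomal protein genes, with a median length of 3.31 kb, counted 0 of 40. A gene of that length has no room over 5 kb from its start, so the 0 follows from the rule. A bound core promoter was present in 13 of the 40 (32.5%), against 12.8% of all protein-coding genes. These lists were not tested for enrichment.

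**Figure D5:**
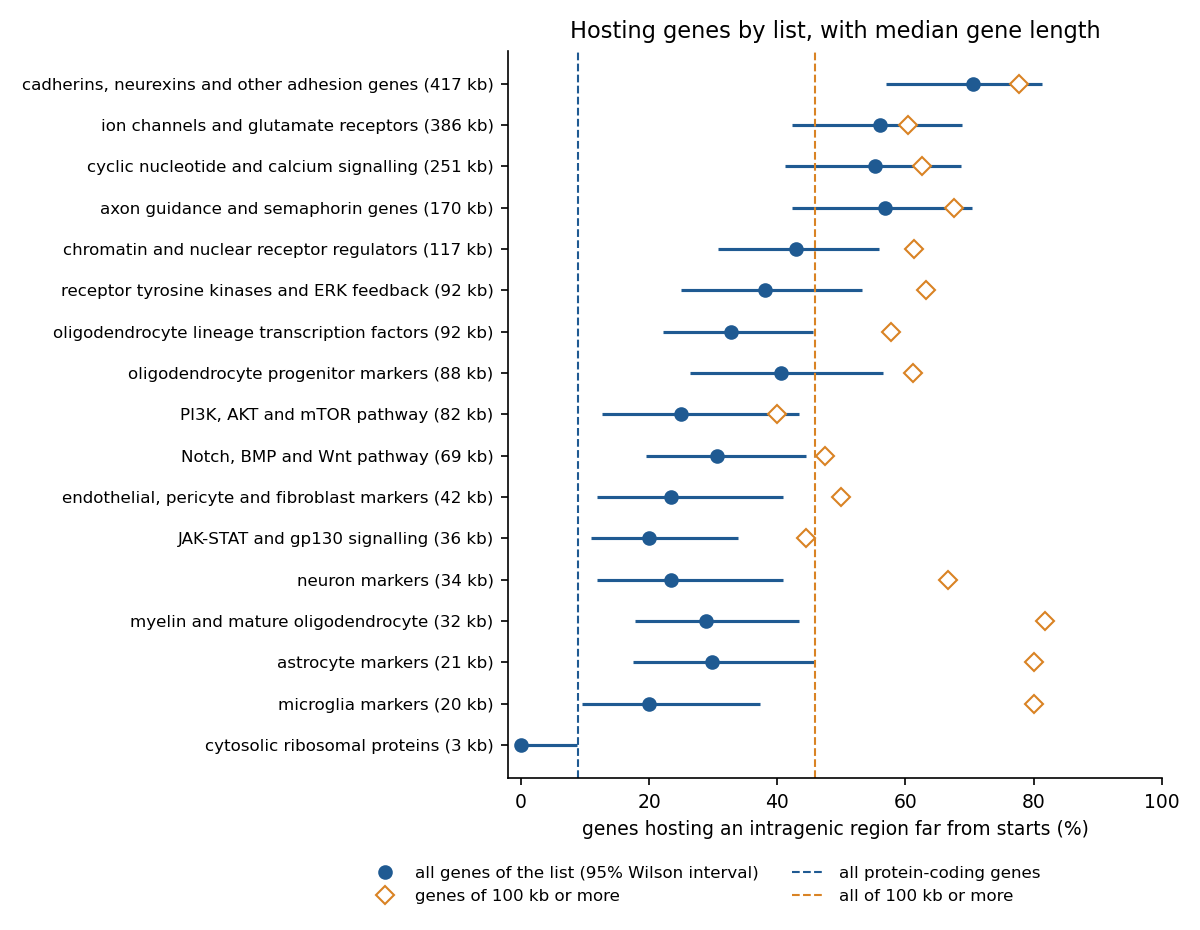
Percentage of genes in each list described here that hold an intragenic region far from starts (circles, with 95% Wilson intervals) and the same among genes of 100 kb or more (diamonds), with the lists ordered by median gene length and dashed lines at 8.90% and 45.9% for all protein-coding genes and all long ones. The 4 lists of the longest genes, at the top, have shares of 55.3% or more, and the ribosomal protein genes, at the bottom, have 0 of 40. Genes of the median length of that last list have no room for a region under the rule.

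By chromosome, the autosomes held 4.58 ± 0.56 intragenic regions per Mb of eligible gene interior (SD, n = 19 chromosomes), from 3.83 on chromosome 14 to 5.81 on chromosome 19. Chromosome X held 1.06 per Mb, with 41 regions, below every autosome. It was also low over all classes, with 193 regions against 394 on chromosome 19, the autosome with the fewest. Intragenic regions were 21.2% of all regions on chromosome X and 25.4 to 34.9% on the autosomes.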

How the data were processed

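pSTAT3 ChIP-seq was analysed in 2 libraries. Per the submitters' processing notes, CASAVA 1.8, Bowtie2 and MACS2 were used on GRCm38.p3, and their options are not given in the sources used here. The authors deposited, per library, the pileup signal at each summit, the fold enrichment as a ratio to local background and the −log10 p of each peak, per the file headers and the values. Peaks are taken as called per sample. The authors also deposited a table of regions. In that deposited table the column headed as an adjusted p-value holds the authors' IDR, at most 0.05, and the column headed pileup holds the mean −log10 p of the overlapping peaks in 12924 of 12925 regions within 0.001 and was not used as a pileup.

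Each region took the strongest peak of each replicate that overlapped it by at least 1 bp. Transcripts were those of the authors' table, and gene lengths, names and promoter windows came from RefSeq (GRCm38.p6), with 2090 of 2175 host genes matched. Exon and intron classes were not analysed here, and motifs were searched in RefSeq promoter windows alone. Values are counts, medians and Wilson intervals (95%), with no p-values, and the steps were tested on simulated data. The members and gene lists were chosen with earlier results of these data known. Named genes were the 15 strongest regions, the 10 genes with most regions (ties by summed lower fold), up to 3 genes per list by lower fold, the regions at the limits of the rule, the 3 farthest, and Gfap, Socs3, Stat3, Mbp and Olig2. Elk3, Gse1 and Bcl6, with the other genes of the printed windows, were picked with values in view. A gene list and a gene of another list are not reported here. The tools were matplotlib 3.10.9, pandas 2.3.3, numpy 2.4.6 and scipy 1.17.1 under Python 3.11.15.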

Additional observations from a re-analysis of the deposited data

How the results depend on the processing

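Of 112 alternative values, 96 stayed close to the reported ones. Most of the 112 were gene counts per list, including the ribosomal protein list, which held 0 at every setting. Those 0 values are among the 96, although genes of that list's median length have no room for a region under the rule. A count was close within 1.5 times. A median, ratio or strong share was close within the SD between replicates. The share nearer the start had the reach of its interval, and the rank correlation a fixed margin. Of the alternative ratios to core promoters, only that at 10 kb from every start, 0.994, was close. The median lower fold was 7.53 to 10.3 with 1 replicate left out. The ratio to core promoters was 0.982 to 0.985 with 1 replicate left out, 0.979 at an IDR of 0.01 or below, 1 for the pileup and 0.998 against intergenic regions over 5 kb from every start. The median width was 375 bp for replicate 2 peaks. The share of strong regions was 30.4% at a threshold of 10, 1.87% at 30, and 7.62 to 15.5% with 1 replicate left out. The share nearer the start than the 3' end was 47.5% with the shortest host transcript. With only the regions at or above their median lower fold, 1323 genes held one, and 4 of 18 list counts moved by over 1.5 times. The cause of these changes was not tested, beyond fewer regions counted in the last. Counts by RefSeq starts (of regions) and by RefSeq spans (of genes and lists) were added after the data were seen, and no list count moved by over 1.5 times with the spans. Read numbers were not used here, and 32.0% of intragenic regions in replicate 1 and 35.7% in replicate 2 sat within 1% of the lowest background, where fold and pileup carry nearly the same information. No paired analysis was possible because the ChIP replicates form 1 group, the inputs were not analysed here and no result comes from a test.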
